A study of Mus musculus with 4 samples.

Results

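Polycomb repressive complex 1 (PRC1) was examined through 9 of its subunit genes, Ring1, Rnf2, Bmi1, Pcgf2, Phc1, Phc2, Cbx2, Cbx7 and Cbx8, which were found by symbol among the 21832 genes of the expression tables. Poly(A) RNA had been sequenced from mouse retina of the slc:ICR background at postnatal day 12. Retinal cells were sorted on Cd73, a surface enzyme of rod photoreceptors and their precursors encoded by Nt5e, into a positive (Cd73P) and a negative (Cd73N) fraction. Each fraction came from wildtype littermates and from Ezh2-cKO mice, in which Dkk3-Cre, active in retinal progenitors from early embryonic life, deletes floxed Ezh2. There were thus 4 libraries, 1 for each of the 4 groups: Cd73N wild type, Cd73N Ezh2-cKO, Cd73P wild type and Cd73P Ezh2-cKO. Values listed for all libraries follow this order. How many retinas were pooled is not given in the sources used here. Because each group is a single library, no difference could be checked against replicates or tested, and every error given covers counting within a library only.

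PRC1 ubiquitinates a lysine of histone H2A and compacts chromatin, and together with PRC2 it keeps developmental genes silent. In its canonical form a RING ligase (Ring1 or Rnf2) is joined by a PCGF protein (Bmi1 or Pcgf2), by a polyhomeotic protein that polymerises through its SAM domain (Phc1 or Phc2) and by a chromobox protein (Cbx2, Cbx7 or Cbx8) whose chromodomain binds H3K27me3, the mark set by the PRC2 methyltransferase Ezh2. Variant forms carry Rybp or Yaf2 in place of the chromobox protein and use other PCGF proteins.

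To show the letters in front of the genes that most separated the fractions of wild-type retina, 250 bases before the RefSeq starts of Pcgf2, Cbx7 and Cbx8 are printed (build GRCm38.p6, all on the minus strand, 5′ to 3′). Capitals mark matches, on either strand, to any of 4 searched motifs: GGGCGG, a GC box, CACGTG, a palindromic E-box, TGCTGA, a core of sites bound by the rod factor Nrl, and TAATCC, a core bound by Crx-type homeodomain proteins. Pcgf2 is read from chr11:97699649-97699898, Cbx7 from chr15:79932647-79932896 and Cbx8 from chr11:119040914-119041163.
Pcgf2: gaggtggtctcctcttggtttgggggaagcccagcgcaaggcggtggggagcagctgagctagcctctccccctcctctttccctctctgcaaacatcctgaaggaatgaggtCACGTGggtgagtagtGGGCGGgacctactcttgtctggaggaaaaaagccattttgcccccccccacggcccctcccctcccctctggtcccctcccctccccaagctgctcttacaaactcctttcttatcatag
Cbx7: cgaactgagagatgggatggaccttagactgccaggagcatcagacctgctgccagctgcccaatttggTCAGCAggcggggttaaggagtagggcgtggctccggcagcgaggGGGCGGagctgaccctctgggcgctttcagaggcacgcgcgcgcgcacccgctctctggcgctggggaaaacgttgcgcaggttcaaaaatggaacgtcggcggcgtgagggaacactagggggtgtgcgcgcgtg
Cbx8: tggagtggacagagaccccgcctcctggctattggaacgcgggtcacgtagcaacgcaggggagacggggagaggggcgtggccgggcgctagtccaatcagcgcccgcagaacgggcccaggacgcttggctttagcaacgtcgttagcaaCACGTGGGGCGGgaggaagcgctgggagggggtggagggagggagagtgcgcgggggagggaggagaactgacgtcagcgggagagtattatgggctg

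The Pcgf2 window held 5 CG dinucleotides, against 23 for Cbx7 and 22 for Cbx8 and a median of 6 over 32851 promoters of the same length. Each of the printed windows held a GC box. Pcgf2 and Cbx8 also held the E-box, which in Cbx8 directly abuts the GC box, and Cbx7 held TGCTGA on the opposite strand. Promoters were found for 8 of the 9 genes, all but Cbx2, and gave 10 windows because Phc2 has 3. Pcgf2 is also listed with 3 starts in the expression data, but only 1 window was found for it. Its CG count describes that window alone, and which start is used in these cells was not tested. GGGCGG was in 8 of the 10 windows and in 32.7% of all promoters, and CACGTG was in 4 and in 6.02%. TGCTGA was in 3 and in 16.1%, and TAATCC was in 1, that of Phc1, and in 6.25%. These matches describe the windows and were not tested.

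Levels were in FPKM, which counts fragments relative to exon length and library depth, so that genes can be compared within a library. Differences between libraries are log2 ratios of FPKM + 1 with their counting standard error (SE), and a gene was called higher or lower at a 1.5-fold difference on that scale. All 9 genes had valid values in all 4 libraries, with a relative SE of 1.28% to 12.9%.

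Whole-library values that bear on the comparisons were as follows. Depth, inferred from the smallest steps between values, was 0.990 to 1.19 times that of Cd73N wild type in the other libraries. Nt5e read 0.84 and 0.61 FPKM in Cd73N against 125 and 123 in Cd73P. The 10 rod genes summed to 1349 and 1308 FPKM in Cd73N against 17166 and 23637 in Cd73P, and each was higher in Cd73P in both genotypes. The 9 cone genes summed to 3808 and 5349 FPKM in Cd73N against 256 and 117 in Cd73P, so that cones went with the negative fraction. Ezh2 read 14.1 and 15.9 FPKM in Cd73N and 5.38 and 3.45 in Cd73P. In Cd73N this goes against the genotype label, although gene-level FPKM cannot show the loss of a floxed exon, and the mutant libraries are therefore called Ezh2-cKO-labelled. Xist, expressed from the inactive X chromosome of females, read 52.2, 240, 47.0 and 95.6 FPKM, and the sum of 4 Y-linked genes was 26.8, 0.72, 27.9 and 0.50 FPKM. Both wild-type libraries thus held Xist together with Y-linked RNA, whereas the Ezh2-cKO-labelled libraries held Xist with little Y-linked RNA. The sex composition of the libraries and the genotype therefore cannot be told apart. All 9 PRC1 genes are autosomal.

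**Figure D1:**
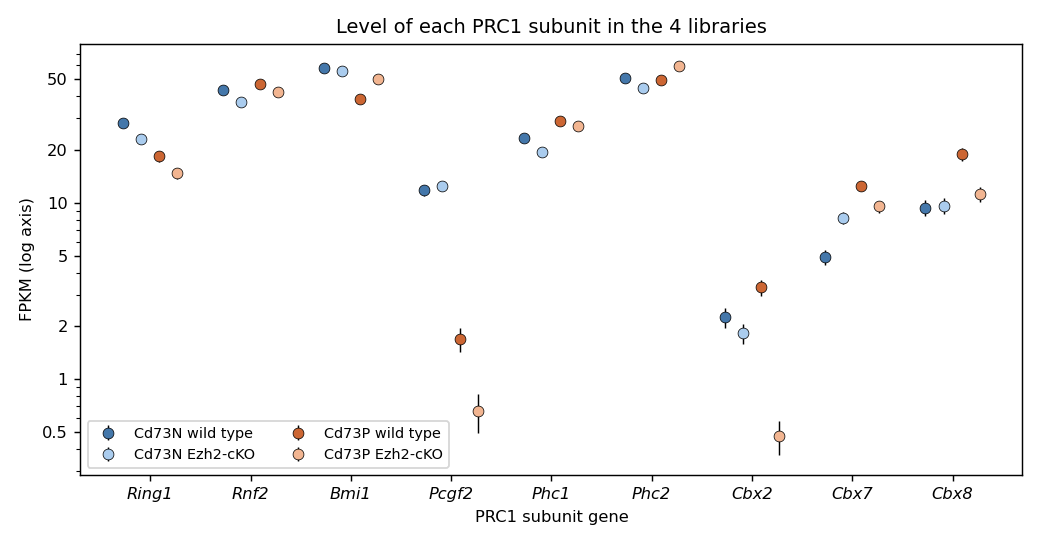
FPKM on a log axis of the 9 PRC1 subunit genes, with 1 point per library and bars of 1.96 counting SE. Rnf2, Bmi1 and Phc2 sit between 37.3 and 59.7 FPKM in all 4 libraries, whereas Pcgf2 is at 1.67 and 0.66 FPKM in the Cd73P libraries and Cbx2 is at 0.47 FPKM in the Ezh2-cKO-labelled Cd73P library.

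The summed FPKM of the 9 genes was 232, 212, 219 and 216, a narrow range beside that of single genes. In both Cd73N libraries the order from high to low was Bmi1, Phc2, Rnf2, Ring1, Phc1, Pcgf2, Cbx8, Cbx7 and Cbx2. In Cd73P wild type it was Phc2, Rnf2, Bmi1, Phc1, Cbx8, Ring1, Cbx7, Cbx2 and Pcgf2. In Cd73P Ezh2-cKO it was Phc2, Bmi1, Rnf2, Phc1, Ring1, Cbx8, Cbx7, Pcgf2 and Cbx2. Neighbours in these orders were apart by more than 1.96 counting SE, except Cbx8 and Ring1 in Cd73P wild type (18.8 and 18.3 FPKM) and Pcgf2 and Cbx2 in Cd73P Ezh2-cKO (0.66 and 0.47 FPKM). The highest gene exceeded the lowest by 26.2-fold in Cd73N wild type and by 126-fold in Cd73P Ezh2-cKO.

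The first comparison asked how the rod fraction differed from the remaining retinal cells. In wild type, 2 of the 9 genes were higher in Cd73P (Cbx7 and Cbx8) and 2 were lower (Ring1 and Pcgf2), where 9.07% and 27.9% of 21705 genes were higher and lower by the same rule. Restricted to genes reaching FPKM 1 in either library, a filter that all 9 passed, the background shares were 15.4% and 45.9%. The median log2 ratio of the 9 genes was 0.11, beside -0.05 for all genes and -0.47 for those reaching FPKM 1. Between the Ezh2-cKO-labelled libraries 0 of the 9 were higher and 3 were lower (Ring1, Pcgf2 and Cbx2), against 8.4% and 29.1% of 21704 genes, or 13.8% and 45.6% of those reaching FPKM 1. Their median was 0.17, beside -0.09 for all genes and -0.46 for those reaching FPKM 1. Scaling the libraries by their median ratio moved the ratios of Cd73P over Cd73N up by 0.31 in wild type and 0.27 under the Ezh2-cKO label. After that scaling 4 genes were higher and 1 was lower in wild type, and 2 were higher and 2 lower under the Ezh2-cKO label. The 3 lower genes under that label were 1 with a pseudocount of 5 or at 2-fold.

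The second comparison asked which of these genes differed with the genotype label in each fraction. In Cd73N, 1 of the 9 was higher with the Ezh2-cKO label (Cbx7) and 0 were lower, where 7.18% and 1.71% of 21706 genes were higher and lower, or 11.6% and 2.86% of those reaching FPKM 1. The Cbx7 call was lost with a pseudocount of 5, where its log2 ratio was 0.42, and at 2-fold. The median was -0.19, beside 0 for all genes and -0.04 for those reaching FPKM 1. In Cd73P, 0 were higher and 3 were lower (Pcgf2, Cbx2 and Cbx8), where 2.26% and 2.39% of 21707 genes were higher and lower, or 4.32% and 4.54% of those reaching FPKM 1. The count of 3 fell to 1 under 4 alternatives. It was Cbx2 that stayed with a pseudocount of 5 (Cbx8 -0.56, Pcgf2 -0.24) and at 2-fold, and Cbx8 that stayed without pseudocount and with FPKM of at least 10, both of which leave out Pcgf2 and Cbx2 as too low. The median was -0.30, beside 0 for all genes and -0.04 for those reaching FPKM 1.

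**Figure D2:**
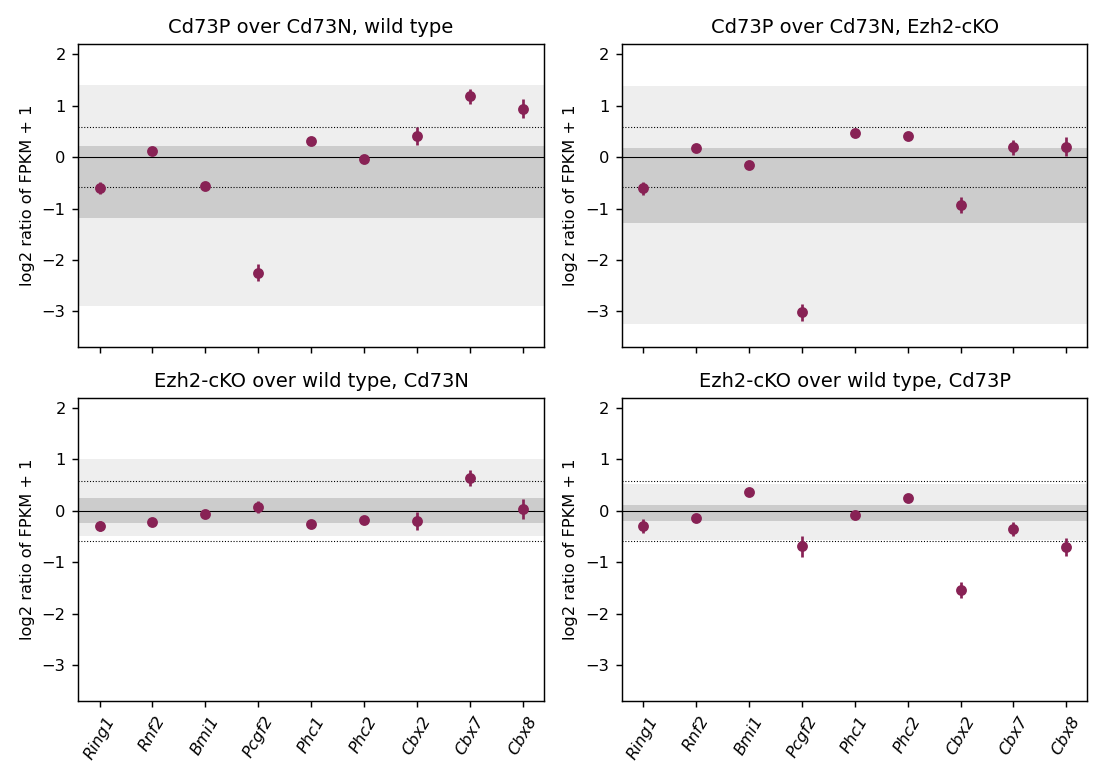
Log2 ratios of FPKM + 1 of the 9 genes in the 4 comparisons, with bars of 1.96 counting SE. Dark and light bands hold the middle 50% and 90% of the genes reaching FPKM 1 in either library, and dotted lines mark 1.5-fold. Pcgf2 lies at -2.25 and -3.02 in the upper panels, inside the light band, and Cbx2 lies at -1.54 in the lower right panel, outside it.

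Of the catalytic subunits, Rnf2 (Ring1B, mm9 chromosome 1, 153316536 to 153347953, minus strand) was the more abundant and the most even of the 9 genes. It read 43.3, 37.3, 46.9 and 42.2 FPKM, a range of 1.26-fold. Ring1 (mm9 chromosome 17, 34157737 to 34161625, minus strand), its paralogue, read 28.3, 22.8, 18.3 and 14.7 FPKM. Both Cd73P values of Ring1 were below both Cd73N values, with log2 ratios of -0.60 (SE 0.060) in wild type and -0.61 (SE 0.063) under the Ezh2-cKO label. These lie just past the threshold of 0.58 in size and became -0.31 and -0.36 after median scaling. The genotype ratio of Ring1 was -0.30 in each fraction and did not reach 1.5-fold.

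Rnf2 therefore took a larger share of the catalytic pair in the rod fraction. Its share of the summed FPKM was 60.5% ± 0.78 (SE) and 62.0% ± 0.76 in Cd73N, and 71.9% ± 0.78 and 74.2% ± 0.80 in Cd73P. A share within a library does not depend on scaling between libraries.

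Of the PCGF subunits, Pcgf2 differed far more between fractions than Bmi1. Bmi1 (Pcgf4, mm9 chromosome 2, 18598645 to 18608256, plus strand), which stimulates the ligase and represses the Ink4a-Arf locus, read 58.3, 55.9, 38.9 and 50.5 FPKM. Its lowest value was that of Cd73P wild type, and its log2 ratio of Cd73P over Cd73N was -0.57 (SE 0.032) in wild type, just short of 1.5-fold, and -0.14 (SE 0.027) under the Ezh2-cKO label, where scaling turned the sign. The log2 genotype ratio was 0.37 (SE 0.032) in Cd73P, short of 1.5-fold, and -0.06 (SE 0.026) in Cd73N, where the sign turned under both scalings. Commd3, which ends 801 bases upstream of Bmi1, read 93.0, 93.8, 49.8 and 53.0 FPKM.

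Pcgf2 (Mel18, mm9 chromosome 11, 97550137 to 97561811, minus strand), the closest paralogue of Bmi1, read 11.7 and 12.4 FPKM in Cd73N but 1.67 and 0.66 FPKM in Cd73P. Both Cd73P values thus lay far below both Cd73N values, by 7.01-fold in wild type and 18.9-fold under the Ezh2-cKO label as plain ratios of FPKM. On the log2 scale the ratio was -2.25 (SE 0.085) and -3.02 (SE 0.084). In wild type 8.93% of genes reaching FPKM 1 had a lower ratio. Between genotypes the log2 ratio was 0.07 (SE 0.060) in Cd73N and -0.69 (SE 0.10) in Cd73P.

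Markers of other cell types were also detected in Cd73P. Pcgf2 in Cd73P amounted to 14.3% of its level in Cd73N for wild type and to 5.30% under the Ezh2-cKO label. The same percentages were 11.3% and 4.46% for the summed Müller glia genes, 11.2% and 7.41% for the bipolar genes and 6.73% and 2.18% for the cone genes. They were 20.6% and 18.5% for microglial, 24.8% and 14.4% for ganglion, 31.0% and 22.8% for horizontal and 28.0% and 7.67% for endothelial genes. The amacrine, pigment epithelium and dividing-cell sums were higher in Cd73P than in Cd73N in both genotypes. All 9 Müller glia genes and all 9 cone genes were lower in Cd73P in both genotypes, as were 5 of 6 bipolar genes. Within Cd73P, however, the Müller glia sum was 111 FPKM in wild type and 212 FPKM under the Ezh2-cKO label, with 6 of 9 genes higher, where Pcgf2 was lower. The bipolar sum was 141 and 50.3 FPKM, with 4 of 6 genes lower, and the cone sum was 256 and 117 FPKM, with 7 of 9 lower. The part of such cells in the Pcgf2 values was not tested. In bulk samples fewer cells of a type and less RNA per cell cannot be told apart.

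Bmi1 accounted for 83.2% ± 0.51 (SE) and 81.9% ± 0.48 of the summed FPKM of Bmi1 and Pcgf2 in Cd73N, and for 95.9% ± 0.32 and 98.7% ± 0.17 in Cd73P. Over all 6 PCGF genes, however, its share was 54.9%, 52.5%, 45.1% and 51.9%, with no gain in the rod fraction. Pcgf1, the PCGF protein of a variant complex with Kdm2b and Bcor, took 11.9% and 14.3% in Cd73N and 22.7% and 23.4% in Cd73P. Its levels were 12.6, 15.2, 19.6 and 22.7 FPKM.

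**Figure D3:**
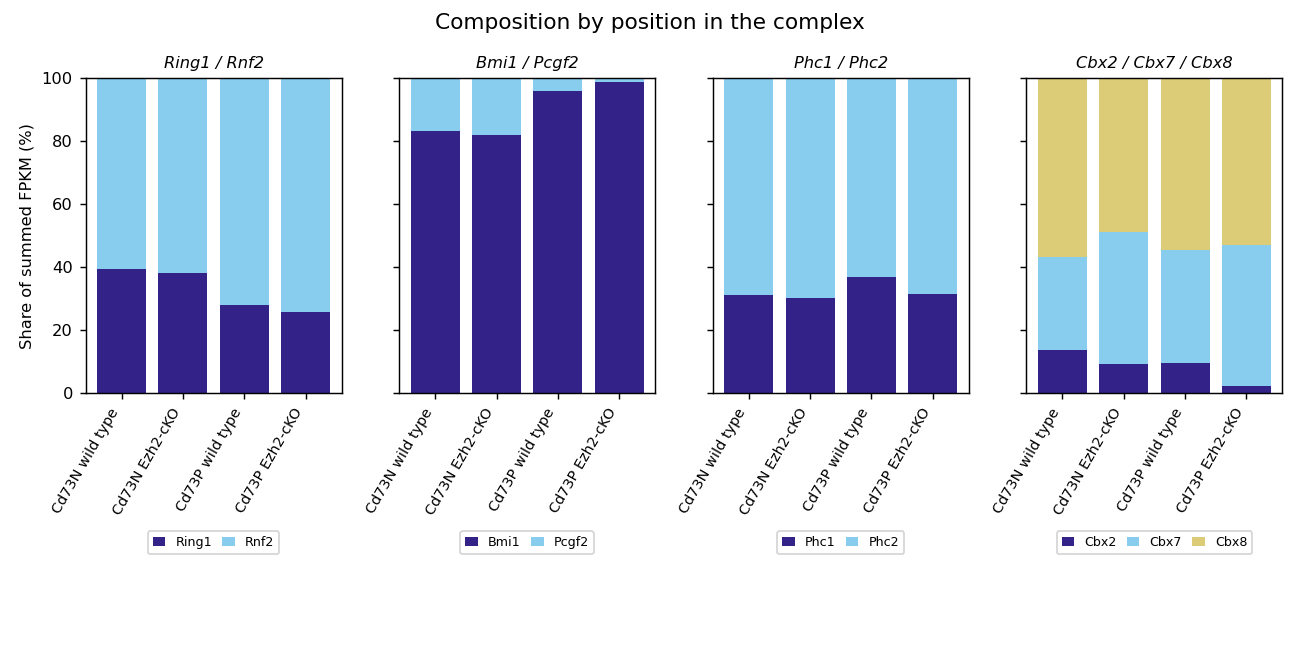
Share in percent of the summed FPKM of the paralogues at each position of canonical PRC1, with 1 stacked bar per library. Pcgf2 takes 16.8% in Cd73N wild type and 4.12% in Cd73P wild type, and Cbx2 takes 2.24% in Cd73P Ezh2-cKO.

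The polyhomeotic genes were comparatively even. Phc2 (mm9 chromosome 4, 128331946 to 128430125, plus strand) read 51.2, 44.8, 49.9 and 59.7 FPKM. Its log2 genotype ratio was -0.19 (SE 0.034) in Cd73N and 0.25 (SE 0.032) in Cd73P, neither reaching 1.5-fold. Phc1 (mm9 chromosome 6, 122267749 to 122287033, minus strand) read 23.1, 19.2, 29.0 and 27.2 FPKM, and both Cd73P values were above both Cd73N values. Its ratios of Cd73P over Cd73N were 0.31 (SE 0.038) and 0.48 (SE 0.039), short of 1.5-fold. The Phc2 share of the pair was 68.9%, 69.9%, 63.2% and 68.7%, with SE of 0.54 to 0.57.

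Among the 9 genes, the chromobox readers had the lowest summed FPKM of the positions, at 16.4, 19.6, 34.5 and 21.2. These sums depend on the genes listed, and with Cbx6 counted they were 30.9, 39.5, 40.1 and 26.7. Cbx7 (mm9 chromosome 15, 79746237 to 79763076, minus strand), which binds H3K27me3 and RNA, read 4.90, 8.20, 12.4 and 9.51 FPKM. The wild-type fractions were the extremes and the Ezh2-cKO-labelled libraries lay between them. The log2 ratio of Cd73P over Cd73N was 1.18 (SE 0.076) in wild type and 0.19 (SE 0.073) under the Ezh2-cKO label. Between genotypes it was 0.64 (SE 0.079) in Cd73N and -0.35 (SE 0.069) in Cd73P. Beside the Cd73N difference, all 9 Müller glia genes were higher with the Ezh2-cKO label, from a sum of 985 to 4738 FPKM, and 4 of 6 bipolar genes were lower, from 1257 to 679 FPKM. Their part in the Cbx7 value was not tested.

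Cbx8 (mm9 chromosome 11, 118899750 to 118902227, minus strand), another chromodomain reader, read 9.32, 9.60, 18.8 and 11.2 FPKM, so that Cd73P wild type stood above the others. Its log2 genotype ratio was 0.04 (SE 0.097) in Cd73N, within counting error, and -0.70 (SE 0.089) in Cd73P. Cbx2 (mm9 chromosome 11, 118884343 to 118892584, plus strand), whose protein compacts nucleosomes, was low throughout, at 2.23, 1.82, 3.30 and 0.47 FPKM. The Ezh2-cKO-labelled Cd73P library stood below the others, 6.97-fold under Cd73P wild type by plain FPKM. The log2 ratio there was -1.54 (SE 0.079), and 0.281% of genes reaching FPKM 1 had a lower one. In Cd73N the genotype ratio of Cbx2 was -0.20 (SE 0.090). The cone and bipolar sums were likewise lower and the Müller glia sum higher with the Ezh2-cKO label in Cd73P, as given with Pcgf2, and their part in the chromobox values was not tested.

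Cbx2 and Cbx8 are neighbours on chromosome 11 with a gap of 7165 bases. Both were lower by 1.5-fold with the Ezh2-cKO label in Cd73P and within 1.5-fold in Cd73N. Cbx6, on chromosome 15 like Cbx7, read 14.5, 19.9, 5.59 and 5.55 FPKM. Its log2 genotype ratio in Cd73P was -0.01 (SE 0.056), and that of Cbx7 was -0.35 (SE 0.069).

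**Figure D4:**
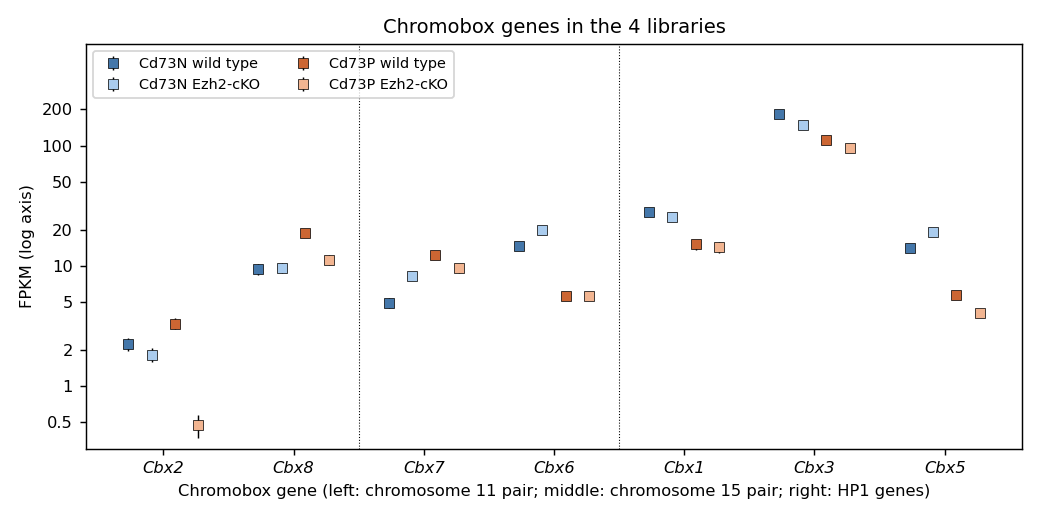
FPKM on a log axis of 7 chromobox genes, with 1 point per library and bars of 1.96 counting SE. The chromosome 11 genes Cbx2 and Cbx8 are lower in Cd73P Ezh2-cKO (0.47 and 11.2 FPKM) than in Cd73P wild type (3.30 and 18.8 FPKM). In these libraries, in the same order, Cbx7 is at 9.51 and 12.4 FPKM and Cbx6 is at 5.55 and 5.59 FPKM.

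Among Cbx2, Cbx7 and Cbx8, Cbx8 held the largest share of the summed FPKM in each of the 4 libraries, from 48.9% to 56.7%. The Cbx7 share was 29.8% ± 1.42 (SE), 41.8% ± 1.45, 35.9% ± 1.15 and 44.9% ± 1.56, higher with the Ezh2-cKO label in both fractions although the Cbx7 level was higher with it in Cd73N alone. With Cbx6 included, Cbx6 held the largest share in both Cd73N libraries at 46.9% and 50.3%, and Cbx8 held it in both Cd73P libraries at 47.0% and 41.8%.

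Set side by side, the genotype ratios had opposite signs in the fractions for 5 of the 9 genes, Bmi1 (whose sign in Cd73N turned under both scalings), Pcgf2, Phc2, Cbx7 and Cbx8. Over all genes the share with opposite signs was 33.5%, and over those reaching FPKM 1 in both fractions it was 41.8%, so that the count of 5 is not far from the background. For 3 of them (Bmi1, Phc2 and Cbx7) both ratios were beyond 1.96 counting SE. The Cd73P ratio minus the Cd73N ratio was -1.35 (SE 0.12) for Cbx2, the largest in size of the 9. For Rnf2 it was 0.06 (SE 0.052), which is within counting error.

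Other genes of the pathway were counted by the same rule. There were 32 further genes of canonical PRC1, variant PRC1 and H2A ubiquitin removal or reading, including some below FPKM 1. Of these 32, 8 were higher and 11 lower in Cd73P than in Cd73N of wild type. Beside them stand 15.4% and 45.9% of genes reaching FPKM 1, or 9.07% and 27.9% of all genes. Under the Ezh2-cKO label 3 were higher and 7 lower, beside 13.8% and 45.6%, or 8.4% and 29.1% of all genes. Between genotypes, on the log2(FPKM + 1) scale, 0 of the 32 passed 1.5-fold in Cd73N and 0 in Cd73P. Of genes reaching FPKM 1, 11.6% were higher and 2.86% lower in Cd73N, and 4.32% and 4.54% in Cd73P. Of all genes the shares were 7.18% and 1.71%, and 2.26% and 2.39%. No alternatives were run for the 32 genes, and this scale understates differences of low genes. Auts2 of the variant list, for example, read 0.66 FPKM in Cd73P wild type and 0.18 FPKM in Cd73P Ezh2-cKO. Genes in general thus also differed more often between fractions than between genotypes.

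In the variant list of 21 genes, Max, the partner of Mga in the Pcgf6 complex, had the largest upward difference in wild-type Cd73P, at 35.0 and 85.2 FPKM in Cd73N and Cd73P and a log2 ratio of 1.26 (SE 0.039). Auts2, a subunit of Pcgf3 and Pcgf5 complexes, had the largest downward one, at 16.5 and 0.66 FPKM and a ratio of -3.40 (SE 0.051). Kdm2b, which recruits the Pcgf1 complex to CpG islands, was lower with a ratio of -1.29 (SE 0.064). Pcgf1 was higher with a ratio of 0.60 (SE 0.11) that lies just past the threshold. Between genotypes in Cd73P, Kdm2b had the largest fall of the list among genes reaching FPKM 1, a ratio of -0.46 (SE 0.073) short of 1.5-fold. Rybp, which replaces the chromobox protein in variant PRC1, had the largest genotype difference of the list, at 44.2 and 29.3 FPKM in Cd73N. Its ratio of -0.58 (SE 0.032) was just short of 1.5-fold on the log2(FPKM + 1) scale, and was not checked on others.

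Cdkn2a and Cdkn2b, adjoining cell cycle inhibitor genes, are classical targets of PRC1. Cdkn2b read 0.47, 6.31, 0.09 and 1.47 FPKM, and its log2 genotype ratio was 2.31 (SE 0.12) in Cd73N and 1.18 (SE 0.12) in Cd73P. Cdkn2a read 1.10 and 20.7 FPKM in Cd73N, while for Cd73P wild type 0 was listed and the Ezh2-cKO-labelled value was 1.87 FPKM. Both were thus higher with the Ezh2-cKO label, in Cd73P at low levels. The paper reports Cdkn2a as released from silencing in Cd73N cells but not in Cd73P cells. Markers of other cell types were also detected in Cd73P, and their part in the Cd73P values was not tested. Any part of the PRC1 subunits in these differences was not tested either.

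The genes most like each subunit were sought by Euclidean distance over the 4 centred log2 values, among genes of mean FPKM within 2-fold. The nearest were Atxn2l for Ring1 (distance 0.018), Rmnd5a for Rnf2 (0.039), 1110008P14Rik for Bmi1 (0.051), Fbxo44 for Pcgf2 (0.099), Cetn2 for Phc1 (0.017), Zfp106 for Phc2 (0.068), Mpp7 for Cbx7 (0.041) and Lbr for Cbx8 (0.17). Such likeness was common for Ring1, with 592 of 4282 genes within a distance of 0.3, and rare for Cbx8, with 13 of 5115. No gene lay within that distance of Cbx2, whose nearest was Gm3893 at 0.36. Among the 9 genes themselves Rnf2 and Phc1 were the closest pair, at 0.26, and Cbx7 and Cbx8 were nearest to each other, at 0.51.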

How the data were processed

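Short single-end reads were aligned by the authors to mm9 with TopHat2 2.0.8b and quantified with Cufflinks 2.1.1. Each of the 4 deposited tables lists 23021 gene rows with FPKM, its bounds and a status. No strand-marking step is described. Positions are those of the files plus 1.

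Rows sharing a symbol were summed (235 symbols) and 726 small RNA symbols were left out. Genes lacking an OK status in a library were dropped from its comparisons. Ratios used log2(FPKM + 1), which understates differences of low genes. Counting SE was the width of the deposited bounds, taken as 4 SE, relative to their midpoint, since 16 of 36 subunit values exceeded their upper bound. Depth was inferred from FPKM steps of short olfactory receptor genes, whose length was reduced by an assumed 200-base fragment. Of 26 to 55 such genes per library, 57.7% to 69.1% lay within 3% of a step from a whole number, so depth is approximate. The counting of calls was tested on simulated data. Python 3.11.15, numpy 2.4.6, pandas 2.3.3 and matplotlib 3.10.9 were used. Alternatives were pseudocounts, scalings, filters and thresholds.

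The subunits and all lists were chosen with earlier results of these data known. All 9 subunits are named. Other pathway genes are named as the largest difference of a list, a paralogue, a neighbour or a target, except Asxl1 and Mysm1, chosen after their values were seen. Kdm2b is named by its genotype ratio in Cd73P, and its ratio between fractions is not the largest of its list. A pathway gene and a marker gene are not reported here and were left out of every list, share and sum. Of the 6 amacrine markers 2 were not analysed here. Summed marker FPKM in Cd73N wild type, Cd73N Ezh2-cKO, Cd73P wild type and Cd73P Ezh2-cKO was 8.09, 11.6, 26.0 and 21.8 for amacrine, 1.27, 1.93, 0.395 and 0.439 for horizontal, 8.36, 9.71, 2.07 and 1.40 for ganglion, 100.4, 147, 20.7 and 27.3 for microglial, 30.6, 96.4, 8.56 and 7.39 for endothelial, 1.12, 0.615, 3.05 and 1.38 for pigment epithelium and 3.69, 3.97, 7.36 and 6.69 for dividing-cell genes. Some of these sums rest mainly on a single gene. In the same library order, Slc6a9 (amacrine) read 6.46, 8.96, 24.1 and 21.4 FPKM. Kdr, the main endothelial gene in Cd73N, read 22.6, 86.2, 0.955 and 3.01 FPKM. Ccna2 (dividing cells) read 1.41, 1.88, 7.01 and 6.40 FPKM. The other dividing-cell genes all read lower in Cd73P than in Cd73N in both genotypes. Promoter sequences are from RefSeq on GRCm38.p6.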

Additional observations from a re-analysis of the deposited data

Results flagged for a closer look

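Each result here had a genotype log2 ratio of opposite direction in the Cd73N and Cd73P fractions. With 1 library per group, none of these differences was tested. Opposite directions were found for 5 of the 9 genes, and for 33.5% of all genes and 41.8% of those reaching FPKM 1 in both fractions. The difference, Cd73P minus Cd73N, was 0.43 for Bmi1, from -0.06 in Cd73N and 0.37 in Cd73P. It was 0.44 for Phc2, from -0.19 and 0.25. It was -0.99 for Cbx7, from 0.64 and -0.35, -0.76 for Pcgf2, from 0.07 and -0.69, and -0.74 for Cbx8, from 0.04 and -0.70. The Cd73N ratios of Pcgf2 and Cbx8 lay within 1.96 counting SE of 0, so their direction in Cd73N is not settled even within the libraries, and the Cd73N ratio of Bmi1 turned positive under both scalings.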

How the results depend on the processing

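No value past the threshold changed sign under the alternatives run. Below it, scaling turned the sign of Phc2 (Cd73P over Cd73N, wild type), of Bmi1 (the same, Ezh2-cKO-labelled) and of Bmi1 between genotypes in Cd73N. Of 312 alternative values of single genes, 253 stayed within counting error and 59 moved beyond it. Of 91 for genes past the threshold, 10 fell short of 1.5-fold. The filters on FPKM in either library and the use of rows of every status cannot change the ratio of a single gene. Their values are unchanged by construction and are included in both totals, which therefore do not measure robustness. No paired analysis was possible because each group has 1 library, and leaving out a library leaves no comparison.

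For genes lower in Cd73P wild type, the count of 2 became 1 with a pseudocount of 5, with median scaling, with FPKM-sum scaling and at 2-fold. Genes higher there were 4 under both scalings and 1 at 2-fold, and the median was 0.41 with median scaling and 0.53 with FPKM-sum scaling. Under the Ezh2-cKO label, genes lower in Cd73P were 1 with a pseudocount of 5, at 2-fold and without pseudocount, where 7 of the 9 genes were left. Genes higher were 2 under both scalings, with medians of 0.43 and 0.39. Between genotypes in Cd73N, no gene was higher with a pseudocount of 5 or at 2-fold (0 in each). The count was also 0 with FPKM of at least 10, but that filter leaves out Cbx7, the only gene called. The median was -0.084 with a pseudocount of 5 and -0.042 with FPKM-sum scaling. In Cd73P, 1 gene was lower with a pseudocount of 5, at 2-fold, with FPKM of at least 10 and without pseudocount, and the median was -0.15 with both of the last, which leave fewer genes. The causes were not tested.

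With further paralogues counted (Cbx6 for Cbx7), in Cd73N wild type, Cd73N Ezh2-cKO, Cd73P wild type and Cd73P Ezh2-cKO, the Bmi1 share was 54.9%, 52.5%, 45.1% and 51.9%, the Phc2 share 65.2%, 64.3%, 57.5% and 63.5%, and the Cbx7 share 15.8%, 20.8%, 30.9% and 35.6%. Pcgf2 and Cbx2 in Cd73P Ezh2-cKO rest on about 59.7 and 78.2 implied fragments, so their ratios there are the least precise.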

Other observations

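Outside PRC1, the HP1 chromobox genes Cbx1, Cbx3 and Cbx5, whose proteins bind methylated H3K9 in heterochromatin, were all lower in Cd73P than in Cd73N by at least 1.5-fold in both genotypes. Of all genes reaching FPKM 1, 45.9% in wild type and 45.6% under the Ezh2-cKO label were lower by the same rule. The log2 ratios of Cbx3 were -0.72 and -0.62, near the threshold, and median scaling moves such ratios up by 0.31 and 0.27. Scaled calls were not run for these genes. In wild type Cbx3 read 184 and 111 FPKM in Cd73N and Cd73P, Cbx1 read 28.1 and 15.0 and Cbx5 read 14.1 and 5.66. None of the 3 differed by 1.5-fold between genotypes in either fraction. Of 7 genes that remove or read H2A ubiquitin, 3 (Asxl1, Asxl2 and Mysm1) were higher in Cd73P of wild type. Asxl3 was lower, from low values of 1.46 and 0.54 FPKM in Cd73N and Cd73P. The background shares were 15.4% higher and 45.9% lower of genes reaching FPKM 1. Under the Ezh2-cKO label 1 of the 7 (Asxl2) was higher and 0 were lower, beside 13.8% and 45.6%. Asxl2, a cofactor of the deubiquitinase Bap1, read 3.76 and 13.4 FPKM in Cd73N and Cd73P of wild type, whereas Bap1 itself read 38.7 and 25.5 FPKM.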
